A study of Mus musculus with 14 samples.

Results

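The genes Pecam1, Cdh5, Tie1, Tek, Kdr, Flt1, Cldn5, Egfl7, Vwf and Esam are commonly used as markers of endothelial cells, and they were read by symbol from RNA-Seq tables of 14 wild-type mouse hearts. These 10 genes are 10 of the 56748 genes in each table, and all 10 had values above the filter on low values (0.5 FPKM in at least 4 hearts) in every comparison. FPKM expresses how many sequenced fragments fell on a gene, per unit of its length, at a common library size. Each heart gave 1 library. The hearts fell into 3 groups by label: WT_A (mice 22, 23, 24 and 26), WT_F (mice 28, 29, 30, 31 and 32) and WT_B (mice 4, 5, 7, 8 and 9). Every mouse was labelled as wild-type C57BL6J with no treatment, and the labels describe doxycycline chow over 16 to 20 weeks. The WT mice received doxycycline as a control for effects of the drug itself. In the transgenic mice of the study, which were not analysed here, it switches on a short hairpin RNA against frataxin. Age at collection, sex, cohort and the part of the heart that was taken are not given in the labels. The study describes a first cohort of males and females and a second cohort of males only. Xist, the RNA of the inactive X chromosome, was at 1.23 to 4.97 FPKM in WT_F and at most 0.0122 FPKM in WT_A and WT_B. The Y-linked genes Ddx3y, Eif2s3y, Kdm5d and Uty were at 0 in all WT_F hearts and above 0 in all others. By these genes the WT_F hearts came from females and the WT_A and WT_B hearts from males. The paper states that males of the first cohort still alive were sacrificed at 20 weeks, and that its transgenic females were kept longer. Sex and time on doxycycline may therefore differ along with the groups.

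Endothelial cells line every vessel of the heart and form its inner surface, the endocardium. They hold together through adhesion proteins at their contacts, and they respond to growth factors of the VEGF and angiopoietin families that are made largely by neighbouring cells. Capillary, arterial, venous and endocardial cells share these markers but carry them at different levels, and Vwf in particular is known to be high in veins and endocardium and low in most capillaries. In RNA from a whole piece of tissue, fewer endothelial cells and less RNA per endothelial cell cannot be told apart.

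The promoters of the genes that rose and fell together between hearts are shown with the letters GGAAG in capitals on either strand. CTTCC thus marks the reverse strand. GGAAG is a form of the core bound by ETS factors, a family with known roles in endothelial genes, and other forms were not counted. RefSeq promoters of build GRCm38.p6 were found for 6 of the 10 genes, and the 250 bases before the annotated start are printed, 5′ to 3′ along the gene. Egfl7 has 3 annotated starts, of which the most upstream is shown. The lines run from the most to the fewest matches.
Tie1 promoter, chr4:118489850-118490099, minus strand: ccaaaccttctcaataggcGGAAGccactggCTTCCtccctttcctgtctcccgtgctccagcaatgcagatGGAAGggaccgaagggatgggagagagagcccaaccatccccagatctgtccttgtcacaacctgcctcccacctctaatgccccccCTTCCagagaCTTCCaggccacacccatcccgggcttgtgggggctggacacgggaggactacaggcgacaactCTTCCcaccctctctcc
Egfl7 promoter, chr2:26580833-26581082, plus strand: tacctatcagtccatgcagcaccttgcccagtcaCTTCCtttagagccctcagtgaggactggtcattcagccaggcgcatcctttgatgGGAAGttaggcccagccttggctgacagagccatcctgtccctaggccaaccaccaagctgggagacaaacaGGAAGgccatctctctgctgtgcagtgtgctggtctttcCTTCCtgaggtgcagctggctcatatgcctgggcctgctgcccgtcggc
Flt1 promoter, chr5:147726012-147726261, minus strand: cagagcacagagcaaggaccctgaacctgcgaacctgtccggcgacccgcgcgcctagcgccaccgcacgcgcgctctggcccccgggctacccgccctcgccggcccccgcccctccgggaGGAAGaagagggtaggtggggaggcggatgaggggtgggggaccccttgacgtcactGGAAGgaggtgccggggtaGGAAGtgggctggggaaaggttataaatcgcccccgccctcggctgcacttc
Kdr promoter, chr5:75978456-75978705, minus strand: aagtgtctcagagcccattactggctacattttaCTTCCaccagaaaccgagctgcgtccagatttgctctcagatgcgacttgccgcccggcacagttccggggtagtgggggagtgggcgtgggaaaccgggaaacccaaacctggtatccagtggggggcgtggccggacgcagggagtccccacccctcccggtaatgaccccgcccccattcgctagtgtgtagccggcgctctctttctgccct
Tek promoter, chr4:94739039-94739288, plus strand: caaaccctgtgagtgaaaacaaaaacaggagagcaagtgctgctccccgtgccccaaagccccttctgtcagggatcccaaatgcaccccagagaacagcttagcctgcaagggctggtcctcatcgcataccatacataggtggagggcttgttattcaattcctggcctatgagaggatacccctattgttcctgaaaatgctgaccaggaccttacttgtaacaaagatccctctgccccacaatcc
The Tie1 window held 6 matches, this Egfl7 window 4 (the windows of its other starts held 2 and 0), the Flt1 window 3 and the Kdr window 1, while the Tek window and that of Cldn5 held 0. Across all 32851 RefSeq promoter windows of this length, 64.1% held at least 1 match, 10.7% held 3 or more and 0.344% held 6 or more. The letters TATAAA were found only in the Flt1 window among these 6 genes, and 12.4% of all windows held them. The letters AGATAA, a form of the GATA motif, were found in none of the 6 genes' windows and in 9.99% of all windows. Tie1 and Tek, which encode the receptors of one family, stood at the ends of the count of GGAAG, and Kdr and Flt1, the VEGF receptors, lay between them. A match is a description of the letters only, and a window with 0 matches may hold other forms of the ETS core.

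Egfl7 also hosts a microRNA, miR-126, which is abundant in endothelial cells. Its mature sequence is given with the seed (bases 2 to 8) in capitals.
mmu-miR-126a-3p, chr2:26591402-26591423, plus strand: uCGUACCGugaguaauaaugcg
The hairpin gene Mir126a was listed at 0 FPKM in all 14 hearts, and libraries of selected poly-A RNA do not measure mature microRNAs. Mir126a shares 73 exon bases with Egfl7, and the neighbour Agpat2 on the opposite strand (up to 39.5 FPKM) shares 64, or 1.79% of the exon length of Egfl7. Whether the counting used strand is not given in the sources used here, so reads in those bases cannot be assigned to one gene.

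The libraries held 16820000 to 31990000 fragments, as recovered from the steps between low FPKM values. At that depth the least covered value, Cldn5 in its lowest library, rested on about 275 fragments, and Vwf, the lowest gene by FPKM, on at least 577 because its transcript is long. Counting error was therefore small against the spread between hearts. The hearts differed in the share of summed FPKM that came from the mitochondrial genome. This share was 33.8% to 52.0% in all 5 WT_B hearts, 51.0% in WT_A 22 and 49.99% in WT_F 28, and 1.93% to 17.2% in the other 7 hearts. WT_A 24 stood apart in another way: the atrial light chain Myl7 was at 4235 FPKM there and at 0 to 2.003 FPKM in the other 13 hearts, while the ventricular light chain Myl2 was at 82.1 FPKM against 2226 to 4441. Results are therefore given with and without WT_A 24.

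Among the adhesion genes, Cdh5, which encodes VE-cadherin of the adherens junction, was the most abundant marker, with a mean of 45.03 ± 9.39 FPKM (SD, n = 13, without WT_A 24). In WT_A it was at 36.6, 62.9, 50.4 and 53.7 FPKM in hearts 22, 23, 24 and 26. In WT_F it was at 33.5, 39.9, 31.9, 43.9 and 54.4 FPKM in hearts 28 to 32, and in WT_B at 53.1, 48.0, 45.5, 35.3 and 46.8 FPKM in hearts 4, 5, 7, 8 and 9. The 3 groups overlapped, and WT_A 24 lay within the range of the others. Pecam1, an adhesion protein of endothelial contacts that is also carried by platelets and leukocytes, was at 23.1, 31.7, 67.2 and 30.3 FPKM in WT_A. It was at 21.1, 25.7, 22.6, 25.95 and 28.5 FPKM in WT_F, and at 28.6, 26.8, 20.5, 21.5 and 24.5 FPKM in WT_B. One heart, WT_A 24, was far above the rest, and the other 13 spanned a 1.55-fold range. Esam, an adhesion molecule of tight junctions, was at 16.5 to 28.7 FPKM in the 13 hearts and at 16.1 FPKM in WT_A 24. Cldn5, the claudin that seals endothelial tight junctions, had the largest relative spread of the markers in those 13 hearts, with a coefficient of variation of 32.5%. It was at 13.9, 26.1, 11.4 and 26.6 FPKM in WT_A, at 14.6, 15.3, 10.7, 16.6 and 15.2 FPKM in WT_F, and at 21.1, 17.7, 10.7, 10.2 and 14.6 FPKM in WT_B. WT_A 23 and WT_A 26 were the highest of the 14 hearts, and all 3 groups reached down to values under 15 FPKM.

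**Figure D1:**
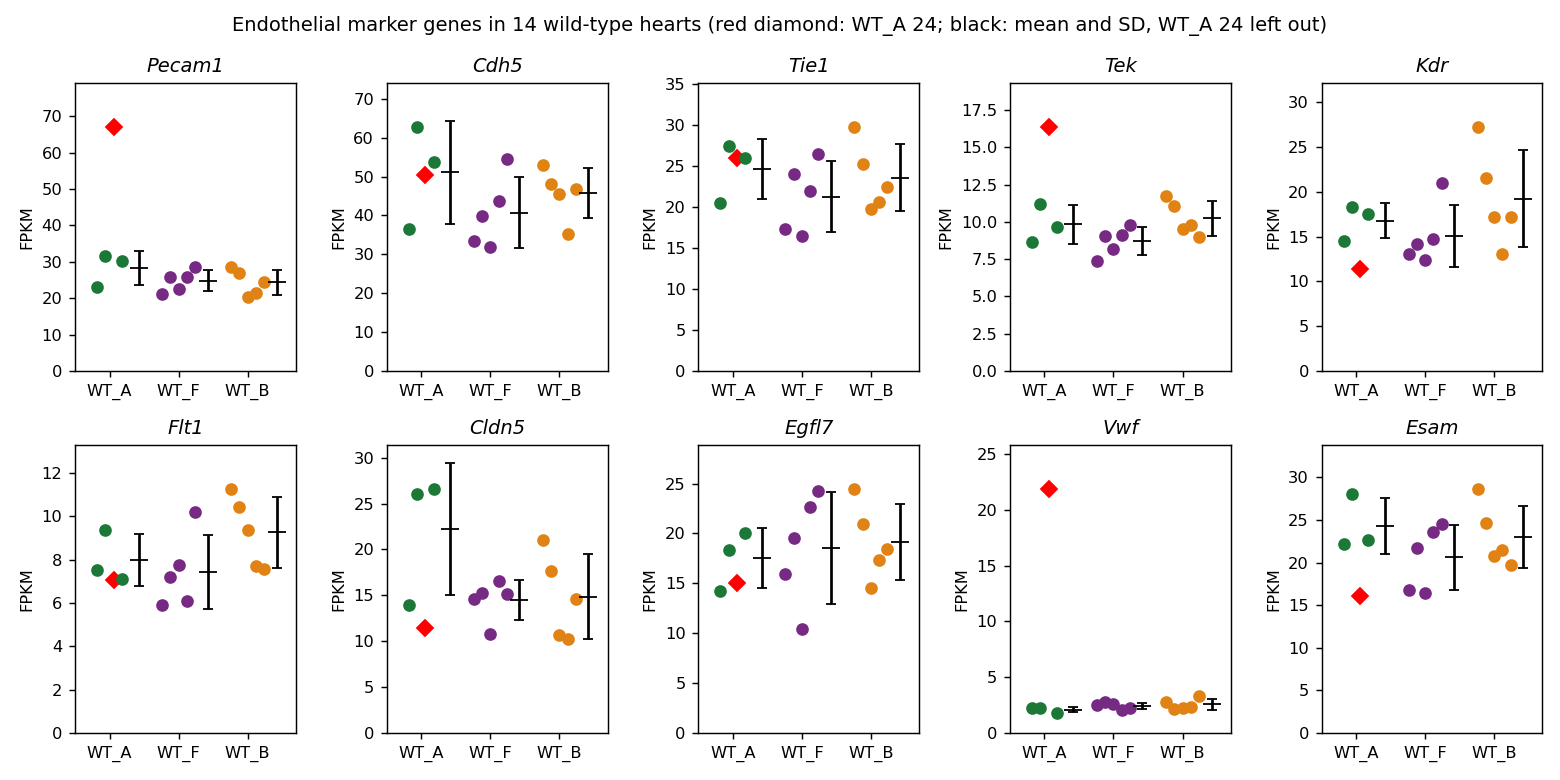
FPKM (vertical axes, each from 0) of the 10 endothelial marker genes in the hearts of WT_A, WT_F and WT_B, 1 point per heart, with WT_A 24 as a red diamond and black bars for the mean and SD of each group without that heart. The groups overlapped for all 10 genes, and WT_A 24 was above all others for Vwf (21.9 FPKM), Pecam1 (67.2 FPKM) and Tek (16.4 FPKM).

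The receptors came next. Tie1, the orphan receptor of the Tie family, was at 16.5 to 29.8 FPKM in 13 hearts and at 25.99 FPKM in WT_A 24. Tek, the angiopoietin receptor Tie2, was at 8.62, 11.2, 16.4 and 9.67 FPKM in WT_A, at 7.38, 9.05, 8.21, 9.15 and 9.78 FPKM in WT_F, and at 11.8, 11.1, 9.55, 9.80 and 8.99 FPKM in WT_B. WT_A 24 was again the highest, and the other 13 hearts had the smallest relative spread of all markers, 12.9%. Kdr, the main signalling receptor of VEGF-A, was at 14.6, 18.3, 11.4 and 17.5 FPKM in WT_A, at 13.04, 14.2, 12.4, 14.8 and 21.0 FPKM in WT_F, and at 27.3, 21.5, 17.2, 13.1 and 17.2 FPKM in WT_B. WT_B 4 was the highest heart and WT_A 24 the lowest. Flt1, a second VEGF receptor that also exists in a soluble decoy form, was at 5.93 to 11.3 FPKM in 13 hearts and at 7.06 FPKM in WT_A 24. The deposited values are per gene, so the soluble and membrane forms of Flt1 were not separated. The ratio of Kdr to Flt1 stayed between 1.60 and 2.47 over all 14 hearts. The ratio of Tie1 to Tek was 2 to 2.71 in 13 hearts and 1.58 in WT_A 24.

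Of the secreted products, Egfl7, which is deposited in the matrix around endothelial cells, was at 10.4 to 24.5 FPKM in 13 hearts and at 15.1 FPKM in WT_A 24. Vwf, which encodes the von Willebrand factor of platelet adhesion, was the least abundant marker. It was at 2.27, 2.21, 21.9 and 1.80 FPKM in WT_A, at 2.50, 2.78, 2.61, 2.06 and 2.21 FPKM in WT_F, and at 2.73, 2.18, 2.25, 2.31 and 3.29 FPKM in WT_B. The 13 hearts other than WT_A 24 lay close together, and WT_A 24 was 9.65-fold above their median. Platelets carry Vwf too, and the platelet gene Pf4 was at 11.4 FPKM in WT_A 24, within the 9.37 to 20.4 FPKM of the other hearts.

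In order of mean FPKM over the 13 hearts the genes ran Cdh5, Pecam1, Tie1, Esam, Egfl7, Kdr, Cldn5, Tek, Flt1 and Vwf. Cdh5 exceeded Pecam1 in 13 of 14 hearts, Pecam1 exceeded Tie1 in 13 and Esam exceeded Egfl7 in 14. Tie1 and Esam were not separated (Tie1 higher in 8 of 14 hearts), nor were Egfl7 and Kdr (9 of 14) or Kdr and Cldn5 (8 of 14). The lower ranks were again distinct, since Cldn5 exceeded Tek, Tek exceeded Flt1 and Flt1 exceeded Vwf in 13 of 14 hearts each. The exception for Vwf was WT_A 24, where it exceeded Flt1 and Tek.

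WT_A 24 differed from the other hearts in the balance between markers. The summed FPKM of the 10 genes was 242.8 there, the highest of the 14 hearts by a small margin, against 139.5 to 238.8 in the others. In that heart 3 markers (Pecam1, Tek and Vwf) lay above all 13 hearts and 2 (Kdr at 11.4 FPKM and Esam at 16.1 FPKM) below all 13. The ratio of Cdh5 to Pecam1 was 0.75, against 1.41 to 2.22 in the others. The ratio of Vwf to Pecam1 was 0.326, against 0.0593 to 0.134. This heart was the highest or lowest of the 14 for 41.1% of the 10745 genes with a mean of at least 1 FPKM (22.1% above and 19% below all 13), where 14.3% would be an equal share. The 3 markers above and 2 below are therefore close to the share of all genes, and the counts of the other lists are to be read against the same shares.

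Other endothelial genes in WT_A 24 were counted by list. Of 29 other pan-endothelial genes, 10 (34.5%) lay above all 13 hearts and 4 (13.8%) below. Among the most abundant of them, Eng was above (193 FPKM against 38.6 to 77.6) and Epas1 below (48.9 FPKM against 53.2 to 76.1). Sox18 was within (27.2 FPKM in 26.01 to 52.2). Of the 7 venous and endocardial genes with a mean of at least 1 FPKM, 6 lay above all 13 hearts, with a median ratio of 5.54 to the median of the 13. Plvap, the protein of endothelial diaphragms, is among the most abundant genes of this list only through WT_A 24. It was at 124 FPKM there and at 1.75 to 4.50 FPKM in the others. Ephb4, a receptor of venous identity, was at 24.8 FPKM against 12.3 to 20.0, while Aplnr, the apelin receptor, was at 7.95 FPKM, within the 5.14 to 16.8 FPKM of the others. Npr3, a natriuretic peptide receptor of endocardium, and Cytl1 were named after their values were seen: they were at 27.98 and 53.4 FPKM in WT_A 24, against at most 2.49 and 6.91 FPKM. Of 11 capillary genes, 7 lay below all 13 hearts and 1 above, and the median ratio was 0.464. Lpl, the lipoprotein lipase, was at 231 FPKM against 321 to 631, Cd36, a fatty acid transporter, at 137 FPKM within 105 to 512, and Aqp1, a water channel, at 102 FPKM within 95.6 to 195. Lpl and Cd36 are also expressed by cardiomyocytes. The arterial list had 9 genes with a mean of at least 1 FPKM, of which 2 lay above all 13 hearts and 2 below. Among them Dll4 (4.38 FPKM) and Gja4 (5.95 FPKM) lay within the other hearts and Sema3g (3.25 FPKM) below them. Gja5 and Bmx, named after their values were seen, lay above them at 31.4 and 6.80 FPKM against at most 1.20 and 0.550. Gja5, also a connexin of atrial muscle, reached a mean of 1 FPKM only through WT_A 24, and Bmx did not reach it.

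Lists of other cells were counted in the same way. The atrial genes, which set this heart apart, included Nppa (6156 FPKM against 21.7 to 232) and Sln (1444 FPKM against at most 0.271). Of 6 atrial genes with a mean of at least 1 FPKM, 3 reached that mean only through WT_A 24, so no count is read from them. All 5 erythroid genes lay above all 13 hearts, with a median ratio of 2.90. Of 10 mural genes, which mark pericytes and smooth muscle, 7 lay below all 13, among them Rgs5 (35.1 FPKM against 49.5 to 108), Acta2 (22.6 FPKM against 31.1 to 184) and Abcc9 (4.15 FPKM against 26.1 to 41.3). Of 12 fibroblast genes, 6 lay above and 0 below, with Gsn (371 FPKM) and Dcn (66.5 FPKM) within the other hearts and Dpt (52.9 FPKM) above them. Of 10 macrophage genes 0 lay above and 3 (30%) below, and of 12 cardiomyocyte genes 0 above and 5 (41.7%) below. The share outside the 13 hearts was thus under the 41.1% of all genes for macrophage genes and close to it for cardiomyocyte genes. For both lists all of it lay below, where 19% of all genes lay below. Actc1 (6607 FPKM) and Myh6 (2296 FPKM) were within the other hearts. The part of these cells in the marker values of WT_A 24 was not tested.

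**Figure D2:**
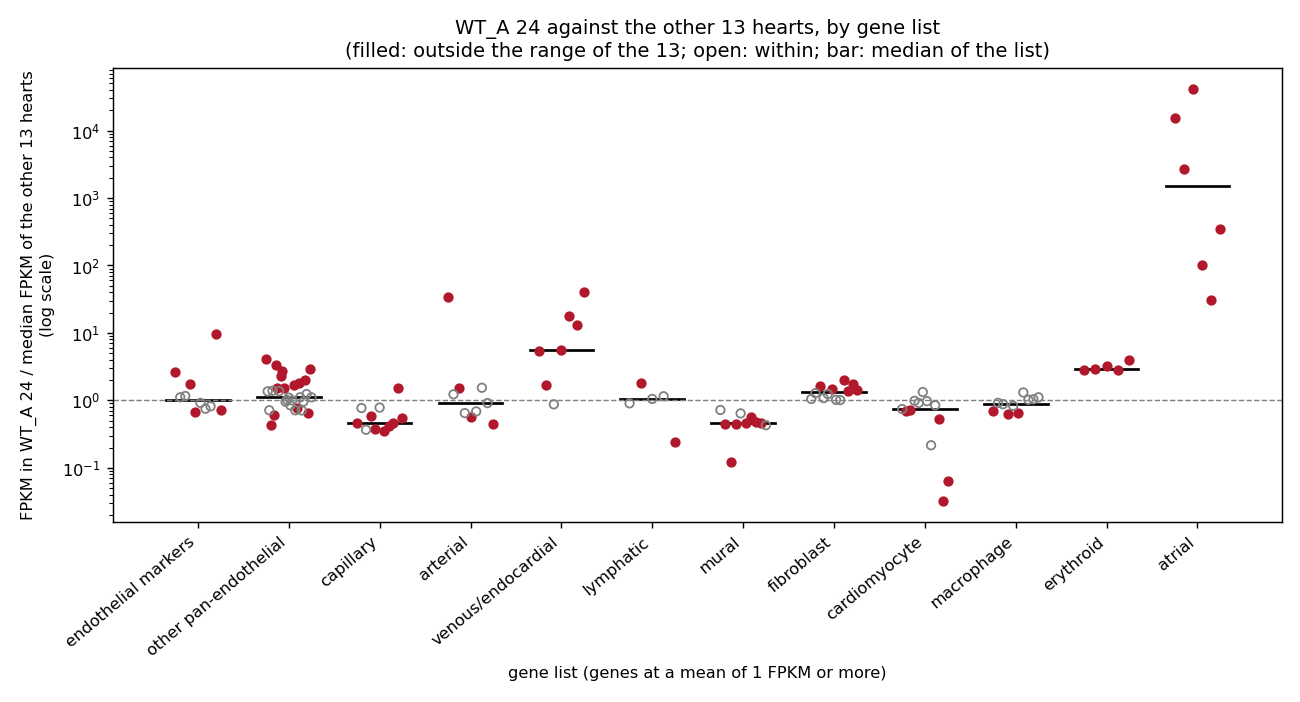
FPKM in WT_A 24 divided by the median of the other 13 hearts (vertical axis, log scale) for the genes with a mean of at least 1 FPKM in the lists named on the horizontal axis, with filled points outside the range of the 13 hearts, open points within it and a bar at the median of each list. The endothelial markers centred on a ratio of 1.01, the venous and endocardial genes on 5.54 and the capillary and mural genes each on 0.464.

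The groups were then compared, with 2 groups in each fit. In limma's moderated test on log2(FPKM + 1), with Benjamini-Hochberg adjustment over all genes, 0 of the 10 markers were called in any of the 3 comparisons. At an unadjusted p under 0.05 there were 0 markers in WT_F against WT_A, 0 in WT_B against WT_A and 1 in WT_B against WT_F, where 3.85%, 22.5% and 25.8% of all genes were. At the adjusted threshold the background was low, since 3 of 12483 genes (0.0240%) were called in WT_F against WT_A, 41 of 12745 (0.322%) in WT_B against WT_A and 208 of 12894 (1.61%) in WT_B against WT_F. Groups did not overlap for 1.56%, 6.91% and 5.23% of genes in these comparisons, and for 0 of the 10 markers in each. At these shares fewer than 1 of 10 genes would be called or separated, so the counts of 0 say little about the markers themselves. The background counts depended on single hearts, since 2392 genes were called in WT_B against WT_A without WT_A 22 and 2645 in WT_B against WT_F without WT_F 28. No marker was called in these fits, but most of all genes tested were not called either, so this too says little about the markers. Without any other single heart the count over all genes was 0 to 26 in WT_B against WT_A, and 17 to 52 in WT_B against WT_F, apart from 284 without WT_B 9. Without WT_A 24, 0 genes were called in WT_F against WT_A and in WT_B against WT_A. All 3 comparisons use some of the same hearts, so they are not independent of each other. WT_F was the only female group by Xist and the Y-linked genes, so group and sex cannot be told apart in its comparisons.

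In WT_F against WT_A, 9 of 10 markers had a lower mean log2 value in WT_F, with a median difference of -0.28 beside -0.0019 over all genes. Pecam1 had a mean of 24.8 ± 2.92 FPKM (SD, n = 5) in WT_F and 38.1 ± 19.8 FPKM (SD, n = 4) in WT_A, a difference of -0.49 ± 0.26 (SE) on the log2(FPKM + 1) scale with an adjusted p of 1.00. Without WT_A 24 the WT_A mean was 28.4 ± 4.62 FPKM (SD, n = 3) and the difference -0.18 ± 0.14 (SE). Vwf changed sign when that heart was left out, from -0.57 ± 0.54 (SE) to 0.15 ± 0.11 (SE). Cldn5 had the largest difference without WT_A 24, -0.54 ± 0.22 (SE), with an unadjusted p of 0.0331 and an adjusted p of 0.992 by limma. No difference passed the test, with or without WT_A 24.

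In WT_B against WT_A, 4 of 10 markers were higher in WT_B and the median difference was -0.10, beside -0.04 over all genes. This direction depended on the scaling. After rescaling to nuclear-encoded genes 7 of 10 markers were higher, Cdh5, Tie1 and Tek having changed sign, with a median of 0.05 beside 0.08 over all genes. With the mitochondrial percent as a covariate 8 of 10 were higher, with a median of 0.19 beside -0.01. Kdr had the largest positive difference, 0.28 ± 0.21 (SE, 95% interval -0.18 to 0.74), and Pecam1 one of -0.52 ± 0.26 (SE), which fell to -0.21 ± 0.15 (SE) without WT_A 24. Vwf differed by -0.53 ± 0.54 (SE), and by 0.19 ± 0.12 (SE) without that heart. The WT_B hearts all had high mitochondrial shares and 3 of the 4 WT_A hearts low ones, so that the group and this share cannot be told apart except through WT_A 22.

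In WT_B against WT_F, 8 of 10 markers were higher in WT_B, with a median difference of 0.16 beside -0.03 over all genes. Tek had the smallest p: its mean was 10.2 ± 1.15 FPKM (SD, n = 5) in WT_B and 8.71 ± 0.931 FPKM (SD, n = 5) in WT_F, a log2 difference of 0.21 ± 0.09 (SE, 95% interval 0.01 to 0.41) with an adjusted p of 0.182 by limma. The 2 groups overlapped for Tek between 8.99 and 9.78 FPKM. The VEGF receptors followed, with Kdr at 0.32 ± 0.18 (SE, adjusted p of 0.297 by limma) and Flt1 at 0.29 ± 0.15 (SE, adjusted p of 0.230). Cldn5 differed by -0.0010 ± 0.19 (SE, 95% interval -0.41 to 0.41). With the mitochondrial percent as a covariate, chosen after seeing the data, the differences were larger. Kdr was then at 0.61, Flt1 at 0.53, Cdh5 at 0.54, Tie1 at 0.47, Esam at 0.43 and Tek at 0.37 on the log2 scale, each with an unadjusted p under 0.05, but their adjusted p was 0.409 or more by limma. All 10 markers were higher in WT_B in that fit. The WT_B hearts all had high mitochondrial shares, and among the WT_F hearts only WT_F 28 did. Group and share therefore cannot be told apart in that fit except through WT_F 28. With the covariate 0, 0 and 6 of 10 markers had an unadjusted p under 0.05 in WT_F against WT_A, WT_B against WT_A and WT_B against WT_F, beside 6.55%, 4.75% and 8.50% of all genes. Most markers rose and fell together between hearts, so such counts are not counts of independent genes. All 10 were also higher after rescaling to nuclear-encoded genes, with a lowest adjusted p of 0.0776 (Tek). Intervals as wide as that of Cldn5 leave room for differences in either direction, so these comparisons do not show that the markers were equal.

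**Figure D3:**
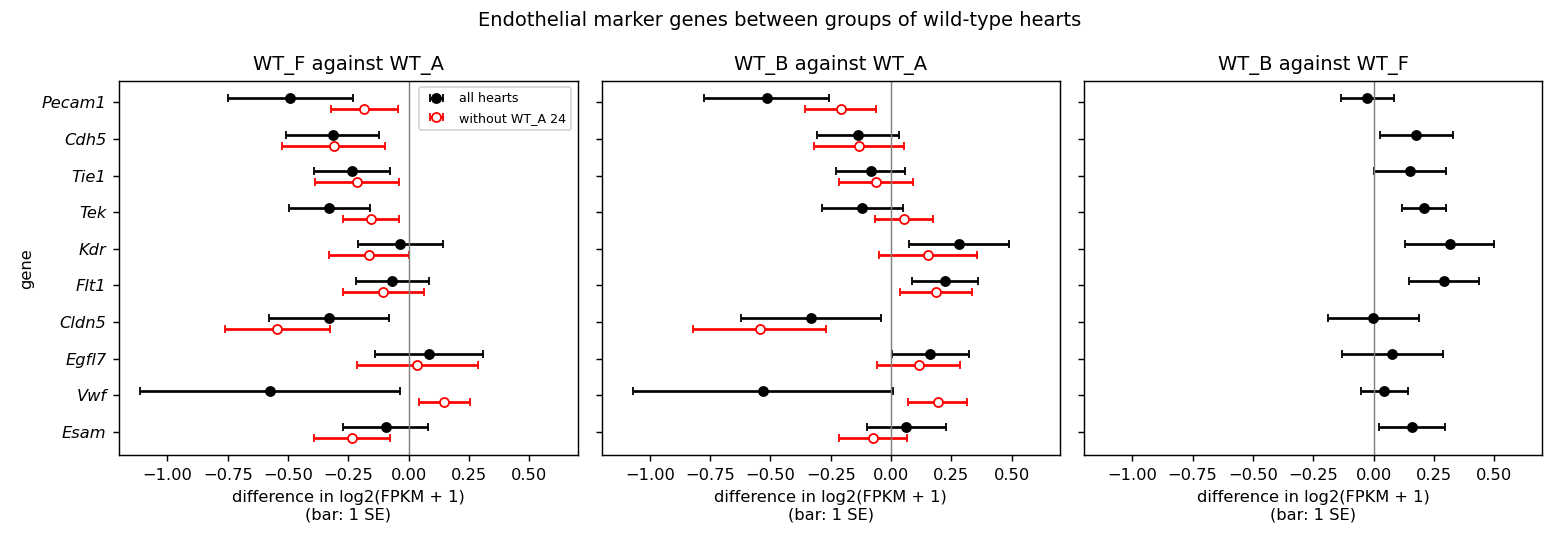
Difference in log2(FPKM + 1) between groups (horizontal axes) for the 10 endothelial marker genes (vertical axis), as filled points with bars of 1 SE for all hearts and open red points without WT_A 24. No marker passed an adjusted p of 0.05, and the Vwf difference changed sign without WT_A 24 in both comparisons with WT_A.

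Other genes of the endothelium gave few calls between groups. Of 29 other pan-endothelial genes tested in each comparison, 0 were called, with median differences of -0.14, -0.02 and 0.07 on the log2 scale in WT_F against WT_A, WT_B against WT_A and WT_B against WT_F. At an unadjusted p under 0.05 there were 1, 4 and 6 of them (3.45%, 13.8% and 20.7%), no more than the 3.85%, 22.5% and 25.8% of all genes. The genes of the VEGF and angiopoietin family had 0 of 14 called, with medians of -0.11, -0.06 and 0.06. Capillary, arterial, venous and endocardial, lymphatic, mural, cardiomyocyte, macrophage, atrial, erythroid and platelet genes had 0 called in all comparisons. Of 12 fibroblast genes 1 was called: Col3a1, a collagen chain, was at 17.3 ± 1.66 FPKM (SD, n = 5) in WT_B and 11.99 ± 1.80 FPKM (SD, n = 5) in WT_F, with an adjusted p of 0.0429 by limma, and 0.499 with the mitochondrial percent as a covariate.

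Although the groups did not separate the markers, the hearts did. The summed FPKM of the 10 genes ran from 139.5 in WT_F 30 and 148.1 in WT_F 28 to 235.6 in WT_A 23 and 238.8 in WT_B 4, leaving out WT_A 24. WT_B 4 was among the 3 highest hearts for 7 markers and the highest of all for 5. WT_F 28 and WT_F 30 were each among the 3 lowest hearts for 7 markers. Higher and lower hearts were found within a group, as WT_F 32 (216.6) beside WT_F 30 and WT_B 8 (159.4) beside WT_B 4 show.

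To describe this covariation, Pearson's r of log2(FPKM + 1) was computed for each of the 45 pairs of markers after the group means had been subtracted. Over all 14 hearts the median r was 0.567, with 36 of 45 pairs positive, beside a median of 0.00281 over all pairs of the 13180 genes that passed the filter in the 14 hearts. Without WT_A 24 the median was 0.760, with 34 pairs over 0.5, beside 0.0137 for all gene pairs. The points of each pair share the library and its scaling, and the same pattern was present after the values had been rescaled to nuclear-encoded genes (0.709 without WT_A 24). In a permutation of hearts within groups, adjusted over the 45 pairs, 18 pairs passed 0.05 by Pearson's r and 18 by Spearman's rho, 17 of them by both, and 0 pairs with Vwf passed by either. Without the 2 hearts farthest from the median of the first gene, r of the 18 pairs was 0.512 to 0.936.

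**Figure D4:**
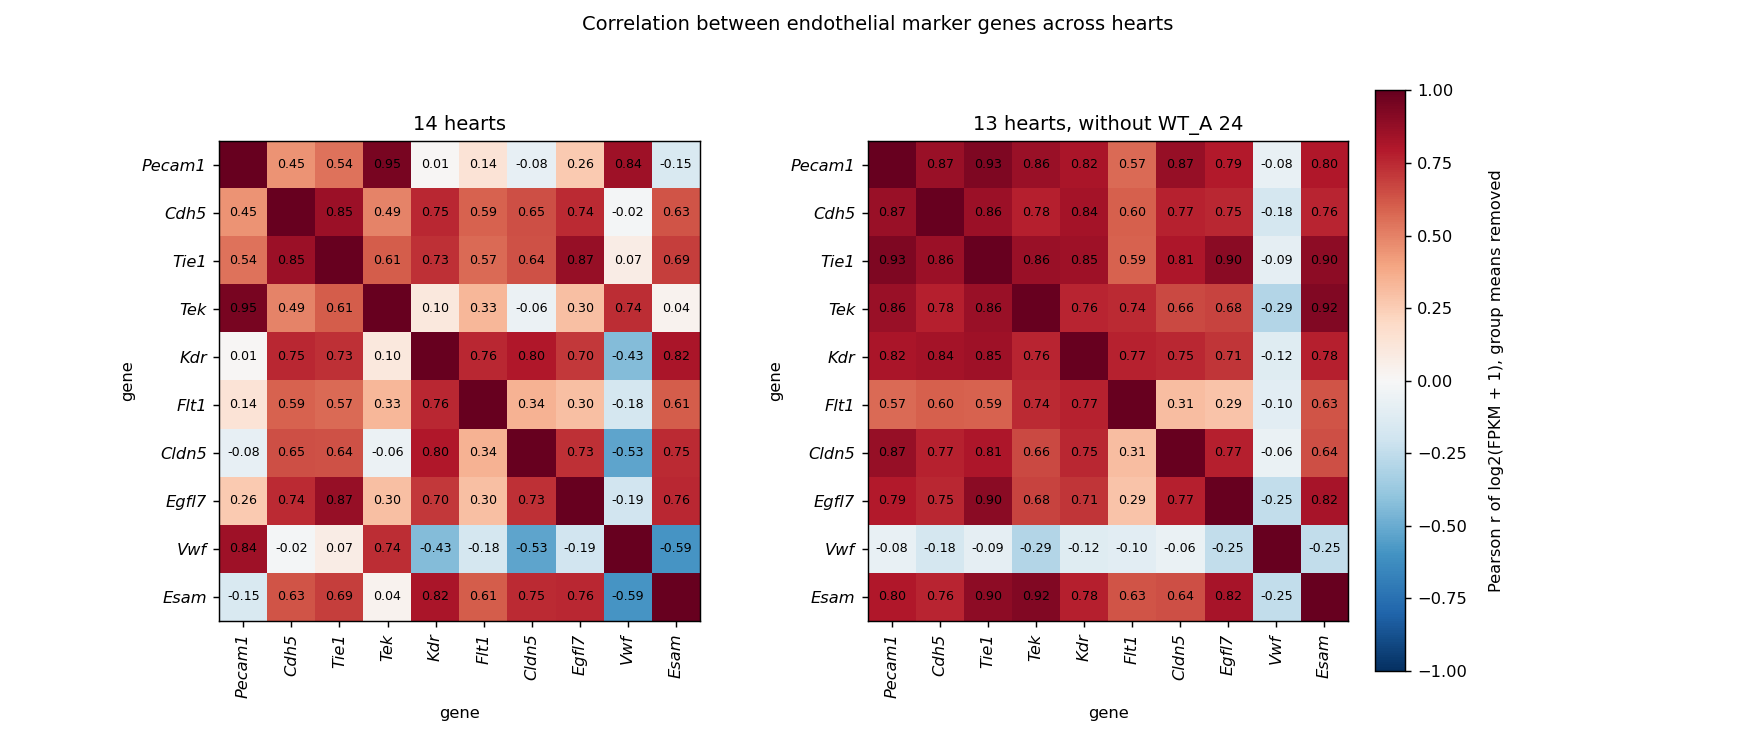
Pearson's r of log2(FPKM + 1) with group means removed for each pair of the 10 endothelial marker genes (rows and columns), over 14 hearts (left) and over 13 hearts without WT_A 24 (right), from -1 in blue to 1 in red. In the 13 hearts the 36 pairs without Vwf were all positive (0.285 to 0.933) and the 9 pairs with Vwf all negative (-0.290 to -0.0632).

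The closest pair was Pecam1 and Tek over 14 hearts (r of 0.946) and Pecam1 and Tie1 over 13 hearts (0.933). Other close pairs also joined genes of different roles. Tie1 and Egfl7 had an r of 0.871 and a rho of 0.890 over 14 hearts (permutation p of 0.00028 and 0.00045, adjusted 0.00326 and 0.00506), and an r of 0.859 without WT_A 22 and WT_F 30. Cdh5 and Tie1 had an r of 0.853 and a rho of 0.802 (permutation p of 0.00044 and 0.00352, adjusted 0.00396 and 0.0132), and 0.767 without WT_A 22 and WT_F 32. Both pairs were as close with WT_A 24 as without it (0.899 and 0.856 over 13 hearts). Kdr and Esam had an r of 0.819 and a rho of 0.890 (permutation p of 0.00021 and 0.00017, adjusted 0.00326 and 0.00465), and 0.747 without WT_F 32 and WT_B 4. The VEGF receptors Kdr and Flt1 had an r of 0.756 and a rho of 0.653 (permutation p of 0.00495 and 0.0214, adjusted 0.0192 and 0.0508). Their r was 0.512 without WT_F 32 and WT_B 4, the hearts with high values of both, and the rank correlation did not pass after adjustment. Flt1 was the least tied of the 9 markers other than Vwf, with a median r of 0.592 to the rest over 13 hearts and the lowest values with Egfl7 (0.285) and Cldn5 (0.309). Tie1 was the most tied, with a median r of 0.856.

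The relation of Vwf to Pecam1 turned on WT_A 24. Pecam1 and Vwf had an r of 0.844 over 14 hearts but a rho of 0.486 (permutation p of 0.147 and 0.137, adjusted 0.245 and 0.205), and an r of -0.0763 over 13 hearts. The relation therefore rested on that heart. Pecam1 and Tek, by contrast, had an r of 0.946 and a rho of 0.921 (permutation p of 0.00029 and 0.00021, adjusted 0.00326 and 0.00465), and it held without WT_A 22 and WT_A 24 (0.83). In reverse, Pecam1 and Esam had an r of -0.154 over 14 hearts and 0.797 over 13, and Tek and Esam of 0.0373 and 0.924. The median r of the 9 pairs with Vwf was -0.179 over 14 hearts and -0.121 over 13, so Vwf did not rise and fall with the other markers in these hearts. Vwf rested on at least 577 fragments per library and varied 1.83-fold between the 13 hearts, a range close to that of Tie1 (1.81-fold).

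**Figure D5:**
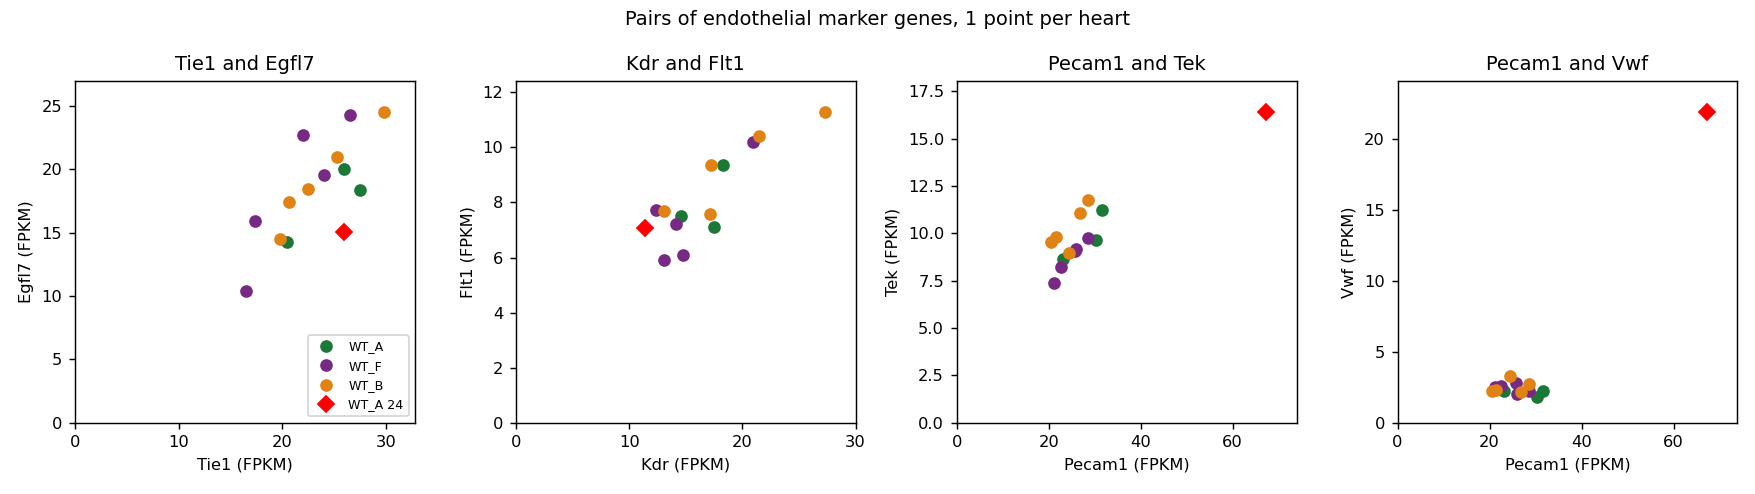
FPKM of 4 pairs of endothelial marker genes (both axes from 0), 1 point per heart coloured by group, with WT_A 24 as a red diamond. Tie1 and Egfl7, Kdr and Flt1, and Pecam1 and Tek rose together over the hearts, while Vwf stayed between 1.80 and 3.29 FPKM as Pecam1 varied, apart from WT_A 24 at 21.9 FPKM.

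The mitochondrial share moved with some of these values. WT_A 22 was below both WT_A 23 and WT_A 26 for 8 of 10 markers, where 47.3% of all 13180 genes were. By the same count WT_F 28 was below all other WT_F hearts for 3 of 10, where 36.9% of genes were. Against the median of those others, WT_A 22 and WT_F 28 were each below it for 9 of 10, where 57.9% and 60.6% of genes were. Cdh5 showed this most plainly, at 36.6 FPKM in WT_A 22 against 53.7 and 62.9 FPKM in WT_A 26 and WT_A 23. With group means removed, 9 of 10 markers fell as the log2 mitochondrial percent rose over 13 hearts, with r of -0.83 for Cdh5, -0.75 for Pecam1, -0.69 for Tie1 and -0.67 for Tek, and 0.24 for Vwf. These are descriptions with no test, since the shares form separate clusters. Without regard to group, 6 of 10 markers had a lower median in the hearts of high share, and the ranges overlapped, with Cdh5 at 33.5 to 53.1 FPKM in the 7 hearts of high share and 31.9 to 62.9 FPKM in the 6 hearts of low share other than WT_A 24. Since the shares form separate clusters, the pairs were also computed within each. The median r of the 45 pairs was 0.761 in the 7 hearts of high share and 0.695 in those 6 hearts of low share, beside 0.00224 and -0.00152 for all gene pairs, and 0.441 in the 7 hearts of low share with WT_A 24. With the line on the log2 mitochondrial percent removed as well as the group means, it was 0.442 over 14 hearts. For the signs of r with this share and the medians by share, no count over all genes was made, and most markers moved together. Those counts therefore do not show a trait particular to the markers. The part of the mitochondrial share in the marker values was not tested further.

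Genes of the same cells moved with the markers. The median r between a marker and one of the 29 other pan-endothelial genes was 0.423 over 14 hearts and 0.595 over 13, where it was 0.0364 and 0.0781 between a marker and any gene tested. Against the 9 markers other than Vwf, 19 of the 29 genes had a median r over 0.5 in 13 hearts. Among the most abundant of them were Eng, a co-receptor of the TGF-beta family (0.792), Epas1, which encodes HIF-2 alpha (0.796), and Sox18, a transcription factor of vessel growth (0.783). These were at 38.6 to 77.6, 53.2 to 76.1 and 26.01 to 52.2 FPKM in the 13 hearts. The ETS factors of the list, named after their values were seen, were not uniform, since Erg reached 0.725 and Fli1 0.355. Of the 29 genes 4 had a negative median r in 13 hearts, namely Calcrl (-0.390), Adgrl4 (-0.147), S1pr1 (-0.0924) and Emcn (-0.0611), each named after its value was seen. Calcrl, a receptor subunit for adrenomedullin, was at 1.72 to 4.36 FPKM in the 7 hearts of high mitochondrial share and at 1.04 to 2.08 FPKM in the 6 of low share, and Adgrl4 at 8.72 to 15.7 against 5.01 to 7.21 FPKM. Their transcripts have a GC content of 37.8% and 42.2%, against 47.1% to 60.5% for the 10 markers. Emcn has 41.5% and S1pr1 48.8%. Myct1 (42.1%, median r of 0.688) and Palmd (43.6%, 0.503), named after their values were seen, are also low in GC content but followed the markers. The part of GC content in these relations was not tested.

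The lists of other cells gave a graded picture over 13 hearts. The median r with a marker was 0.602 for 9 arterial genes and 0.567 for 11 mural genes, 0.431 for 11 capillary genes, 0.289 for 12 fibroblast genes and 0.212 for 12 macrophage genes. It was 0.204 for 12 cardiomyocyte genes, 0.167 for 8 venous and endocardial genes, 0.158 for 5 erythroid genes and 0.0422 for 6 lymphatic genes. The atrial list (0.173) and the platelet list (0.306) held only 4 and 2 genes above the filter. Over 14 hearts the arterial (0.498) and mural (0.385) lists again had the highest medians, but the capillary list (0.161) was below the fibroblast list (0.320). The differences between lists were not tested.

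The ligands of these receptors are made largely outside the endothelium. Vegfb, at 184 to 324 FPKM in 13 hearts, and Vegfa, at 51.4 to 84.1 FPKM, had a median r of 0.463 and 0.468 to the 9 markers over 13 hearts, and of 0.473 and 0.268 over 14. Egln3, a prolyl hydroxylase that acts on HIF proteins, was at 32.1 to 52.3 FPKM, with a median r of -0.224 over 13 hearts and -0.0920 over 14. Vegfa was at 34.4 FPKM in WT_A 24, below all other hearts. Angpt1, the main ligand of Tek, was named after its values were seen: its median r to the 9 markers was -0.865 over 13 hearts, the lowest of the 14 genes of this family, and -0.534 over 14 hearts, where Hif1a was the lowest. It was at 0.888 to 7.50 FPKM in those hearts and at 19.5 FPKM in WT_A 24. Its transcript has a low GC content (39.3%), and it was at 1.88 to 7.50 FPKM in the 7 hearts of high mitochondrial share and 0.888 to 3.75 FPKM in the 6 of low share. Hif1a, the alpha subunit of HIF-1 and likewise low in GC (41.3%), had a median r of -0.694 over 13 hearts and -0.607 over 14, and was at 7.70 to 10.3 FPKM in the hearts of high share and 2.7 to 7.53 FPKM in those of low share. The part of base composition in these relations was not tested.

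The genes most like the markers were found among 10611 named genes with a mean of at least 1 FPKM, by Pearson's r over 14 hearts to the mean of the 10 standardised markers with group means removed. The 10 highest were Cdc42ep1 (0.941), Cap1 (0.939), Arhgef2 (0.935), Adcy4 (0.933), Podxl (0.932), Myo1d (0.926), Cfl1 (0.919), Cavin1 (0.915), Igfbp7 (0.915) and Zfp703 (0.910). Their r over 13 hearts was 0.917 to 0.968, and all 10 were among the 34 highest of that ranking. Cdc42ep1 is an effector of the GTPase Cdc42, Cap1 and Cfl1 bind actin, and Myo1d is a myosin. Podxl, the sialomucin podocalyxin of the endothelial surface, was at 22.9 to 39.7 FPKM, Igfbp7, a secreted binding protein, at 81.7 to 159 FPKM, and Cavin1, a coat protein of caveolae, at 48.9 to 84.4 FPKM. None of the 10 was in a list of vessel or cell type genes used here. The 500 genes most like the markers over 14 hearts, 4.71% of the candidates, held 11 of the 29 other pan-endothelial genes (37.9%), 3 of 9 arterial, 2 of 10 mural and 2 of 12 fibroblast genes. They held 0 of 11 capillary, 12 cardiomyocyte, 10 macrophage and 14 VEGF and angiopoietin genes. Over 13 hearts the capillary list had 4 of 11, the mural list 5 of 10 and the pan-endothelial list 12 of 29.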

How the data were processed

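RNA-Seq of heart tissue from 14 WT mice was analysed, with 1 library per mouse and groups taken from the sample labels (4 WT_A, 5 WT_F and 5 WT_B). The authors extracted RNA with Qiagen kits, selected poly-A RNA, obtained gene counts with featureCounts and deposited FPKM values, which are scaled to gene length and library size; the submitters' processing notes name GRCm39, and the aligner is not given in the sources used here. The authors compared groups with DESeq2, which needs counts and was not run here. Genes were named with GENCODE M21 (52073 of 56748 matched), whose build is GRCm38, so lengths, GC content and overlaps are those of that annotation. Sequences are from RefSeq (GRCm38.p6).

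Values were tested as log2(FPKM + 1) with limma 3.58.1 in R 4.3.3 (two-sided moderated test, with the variance trend over mean expression), 2 groups per fit, for genes that reached 0.5 FPKM in 4 libraries or more, with Benjamini-Hochberg adjustment over all genes and a threshold of 0.05. Nothing in the labels says more of the replicates than their mouse numbers, which differ between groups, so no samples were paired. Correlations used 100000 permutations of hearts within groups, in Python 3.11.15 with numpy 2.4.6 and pandas 2.3.3. Depth was recovered from FPKM steps: 90.3% to 92.0% of low values per library were within 0.02 of a whole number of fragments, where 4.0% would be by chance. Fragment numbers cover counting error only.

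The markers and the gene lists were chosen with earlier results of these data known. Named genes are the 10 markers, the 3 most abundant genes of each other list, called list genes, the 10 genes most like the markers and label-check, atrial and ventricular genes; others are said to be named after their values were seen. The test was tried on simulated data with 200 changed genes: of the 1.5-fold changes 41.8%, 43.3% and 80.6%, and of the 2-fold changes 83.6%, 88.1% and 92.5%, were called in WT_F against WT_A (12483 genes), WT_B against WT_A (12745 genes) and WT_B against WT_F (12894 genes). Unchanged genes made up 11 of 159, 15 of 167 and 2 of 181 calls. The folds were applied to FPKM + 1 and each gene was drawn independently. Hearts that stood apart, as WT_A 24 did, were not simulated. Alternatives were other pseudocounts (0.1 and 5), no filter, a filter of 2 FPKM, 2 other scalings, all 3 groups in one fit, each heart left out in turn, and hearts 22, 24 and 28 left out together. Chosen after seeing the data were a fit with the mitochondrial percent as covariate and correlations within hearts of high or low mitochondrial share, with and without WT_A 24.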

Additional observations from a re-analysis of the deposited data

Results flagged for a closer look

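In each group the highest or lowest heart was compared with the nearest of the others for each of the 10 markers, 30 groups of values in all, of which chance alone flags about 1 in 20. In 2 of them 1 heart lay apart. Vwf was at 21.9 FPKM in WT_A 24, with a gap of 0.977 of the range of the group (1.80 to 21.9 FPKM). Kdr was at 21.0 FPKM in WT_F 32, where the other 4 WT_F hearts were at 12.4 to 14.8 FPKM and the gap was 0.725 of the range. WT_F 32 was also the highest WT_F heart for Cdh5 (54.4 FPKM), Tie1 (26.5 FPKM) and Flt1 (10.2 FPKM).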

How the results depend on the processing

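No marker was called under any pseudocount, filter, scaling or covariate, with all 3 groups in one fit or without any single heart. The exception was WT_B against WT_A without hearts 22, 24 and 28 together, where 1 marker was called. It was Cldn5, at -0.84 on the log2 scale with an adjusted p of 0.0334 by limma. That fit called 4206 genes in all, against 41 with all hearts. The call of 1 marker therefore does not set the markers apart from other genes. Of 550 marker differences under the alternatives, 45 had another sign than with all hearts, none of them past the threshold, and 14 moved by at least 1 SD between hearts. No paired analysis was possible because the mouse numbers differ between groups. The median correlation of the marker pairs was 0.452 to 0.760 when 1 heart was left out and 0.441 to 0.761 under the other alternatives.

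The counts over all genes depended far more on the processing. In WT_F against WT_A (3 genes called) the count was 6 with a pseudocount of 0.1 FPKM, 1 with no filter, 9 with all 3 groups in one fit, 1 without hearts 22, 24 and 28, and 0 to 4 when 1 heart was left out. In WT_B against WT_A (41 genes) it was 0 with no filter, 26 with a filter at 2 FPKM, 102 after rescaling to nuclear-encoded genes, 401 with all 3 groups in one fit, 4206 without hearts 22, 24 and 28, 2 with the mitochondrial percent as a covariate, and 0 to 2392 when 1 heart was left out. In WT_B against WT_F (208 genes) it was 20 with no filter, 35 with all 3 groups in one fit, 2645 without hearts 22, 24 and 28 (of which only heart 28 enters this fit), 11 with the covariate, and 17 to 2645 when 1 heart was left out. The causes were not tested. The tests on FPKM give deeper libraries no more weight, and 4 or 5 hearts in a group limit them further.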
